A study of Mus musculus with 6 samples.

Results

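Dendritic cells are the antigen-presenting cells that start T cell responses, and 10 genes that mark their main branches are described here in mouse bone marrow labelled Stag2KO or Stag2WT. The genes were taken by symbol from a table of 33924 genes. Those of classical dendritic cells were Zbtb46, Batf3, Xcr1 and Clec9a (4 genes), and those of plasmacytoid dendritic cells were Siglech, Cox6a2, Tcf4, Runx2, Irf7 and Bst2 (6 genes). All 10 were found, all 10 had reads in every library, and all 10 passed the filter on low counts. RNA came from bead-separated lineage-negative marrow, with 3 Stag2KO and 3 Stag2WT libraries. The STAG2 protein belongs to cohesin, a ring-shaped complex that folds chromatin into loops. The sources used here do not give the deletion method, the strain or the age of the mice. They also do not say whether the libraries come from different mice, so p-values reflect only how far these libraries spread, which may be technical.

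Dendritic cells arise in the marrow from progenitors that respond to the cytokine FLT3 ligand. Classical dendritic cells take up and present antigen, and their cross-presenting branch, type 1, depends on BATF3 and IRF8. Plasmacytoid dendritic cells make type I interferon when nucleic acids reach their endosomal Toll-like receptors, and they depend on TCF4, a transcription factor of the E protein family that ID2 inhibits.

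Libraries held 29435651 to 37722325 reads assigned to genes. Levels are CPM, read counts scaled to library size with TMM factors, and a gene was called when edgeR's quasi-likelihood test gave a Benjamini-Hochberg adjusted p under 0.05 over 15708 tested genes. Stag2 itself stood at 169, 186 and 183 CPM in the Stag2KO libraries and 338, 328 and 324 CPM in the Stag2WT libraries (log2 change of Stag2KO over Stag2WT -0.88, adjusted p = 0.000278). The libraries labelled Stag2KO thus kept 54.4% of the Stag2WT level of Stag2 reads, and which exons were deleted is not known here, so the count over the whole gene does not show how much intact transcript remained. The progenitor gene Kit was at 220.5 to 265.5 CPM in all 6 libraries. Cd34, also a progenitor gene, was at 179, 226 and 208 CPM in Stag2KO and 129, 129 and 166 CPM in Stag2WT. It was called higher (log2 change 0.53, adjusted p = 0.0222), a call kept in 2 of the 6 fits that each left out a library. Cd34 was named after its values were seen. Of the 10 dendritic cell genes, 3 were called lower, 0 higher and 7 not called, where 21.2% of all tested genes were called, 10.5% lower and 10.7% higher. The groups did not overlap for 4 of the 10, against 43.5% of all tested genes. The marrow is mixed, so fewer cells of a type and less RNA per cell cannot be told apart.

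The sequences before the start sites of Bst2 and Siglech are shown because Bst2 is an interferon-stimulated gene and Siglech the surface gene against which the other plasmacytoid genes are set further on. They come from RefSeq promoters of the GRCm38.p6 assembly, which held 8 of the 10 genes, and stop before the first annotated transcript start. The motifs searched on both strands were the core of the interferon response element (GAAA, any 2 bases, GAAA), CAGNTG, an E-box form that E proteins can bind, and TGANTCA, an AP-1 site. Matches are in capitals. The Bst2 stretch is chr8:71537473-71537722 on the minus strand and the Siglech stretch chr7:55767934-55768177 on the plus strand, both written 5′ to 3′.
Bst2: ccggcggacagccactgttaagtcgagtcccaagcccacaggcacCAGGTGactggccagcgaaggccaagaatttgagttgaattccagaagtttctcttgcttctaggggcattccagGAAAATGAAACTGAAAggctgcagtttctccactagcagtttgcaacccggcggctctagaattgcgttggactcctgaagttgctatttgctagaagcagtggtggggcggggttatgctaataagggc
Siglech: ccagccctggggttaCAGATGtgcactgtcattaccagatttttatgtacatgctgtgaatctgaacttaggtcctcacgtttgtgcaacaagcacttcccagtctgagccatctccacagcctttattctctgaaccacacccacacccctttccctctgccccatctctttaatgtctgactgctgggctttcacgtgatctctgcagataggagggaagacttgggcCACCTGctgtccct
In Bst2, the interferon response element core matched at positions -130 and -124 from the start site, and these matches overlap each other. Bst2 also held CAGNTG at -205. The interferon motif lay in the 250 bases before the start in 2.98% of 32851 promoters, and in 8 of the 22 interferon-stimulated genes listed here that had a promoter. Siglech held CAGNTG at -235 and -20, a motif found in 44.8% of all promoters. The AP-1 form was in 6.75% of promoters and in neither of these stretches. A match is only a description of the letters.

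The first question was how the classical genes stood in the Stag2KO libraries. Zbtb46 and Batf3 fell to 42.6% and 44.3% of the Stag2WT level, Clec9a was not called, and Xcr1 stood higher in Stag2KO without passing the test. Zbtb46, a transcription factor gene that sets classical dendritic cells apart from other myeloid cells, was at 13.0, 14.6 and 11.9 CPM in Stag2KO replicates 1, 2 and 3 and 31.6, 35.0 and 26.1 CPM in Stag2WT replicates 1, 2 and 3. Every Stag2KO library lay below every Stag2WT library. That left 42.6% of the Stag2WT level (log2 change -1.23, SE 0.13, adjusted p = 0.00114), and the call held when any 1 library was left out (largest adjusted p = 0.0057). Within each group Zbtb46 ran in the same order as erythroid markers. Their median log2 difference from the group mean was -0.08, 0.36 and -0.37 in Stag2WT and 0.10, 0.12 and -0.29 in Stag2KO. The other 3 classical genes were lowest in Stag2WT replicate 2, where Zbtb46 was highest. Erythroid progenitors also use Zbtb46, and their part in its result was not tested.

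Batf3, the factor required for type 1 classical dendritic cells, was a low-count gene with 11, 21 and 18 reads in Stag2KO and 49, 30 and 35 in Stag2WT. This gave 0.377, 0.571 and 0.471 CPM against 1.36, 0.856 and 1.02 CPM, groups that do not overlap. The exact Poisson 95% intervals, which cover counting error only, were 5.49 to 19.7, 13.0 to 32.1 and 10.7 to 28.4 reads in Stag2KO replicates 1, 2 and 3. The 30 reads of Stag2WT replicate 2 have an interval of 20.2 to 42.8. It overlaps those of Stag2KO replicates 2 and 3, so the nearest libraries are not parted beyond counting error. The log2 change was -1.18 (SE 0.29, adjusted p = 0.0257). Leaving out Stag2KO replicate 1 (adjusted p = 0.0714), Stag2KO replicate 3 (0.0719), Stag2WT replicate 1 (0.0742) or Stag2WT replicate 3 (0.0534) ended the call.

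Xcr1 encodes the chemokine receptor of type 1 classical dendritic cells, and its direction differed from that of Batf3. It was at 1.20, 2.75 and 1.15 CPM in Stag2KO and 1.14, 0.457 and 0.848 CPM in Stag2WT, from 16 to 101 reads a library. The groups do not overlap, but they are parted only by the gap between 1.15 and 1.14 CPM, and Stag2KO replicate 2 alone is high. The log2 change was 1.06 (SE 0.45, adjusted p = 0.126), and without Stag2KO replicate 2 it was 0.53 (adjusted p = 0.384). Clec9a, the receptor gene for dead-cell actin that is also on in dendritic cell precursors, was at 10.96, 17.5 and 22.4 CPM in Stag2KO and 25.6, 17.5 and 22.9 CPM in Stag2WT. These groups overlap (log2 change -0.37, SE 0.27, adjusted p = 0.354). In the GENCODE M21 annotation 184 of the 3293 exon bases of Clec9a also belong to Clec1b, and the counter set ambiguous reads aside, 2.02% to 2.2% of a library.

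**Figure D1:**
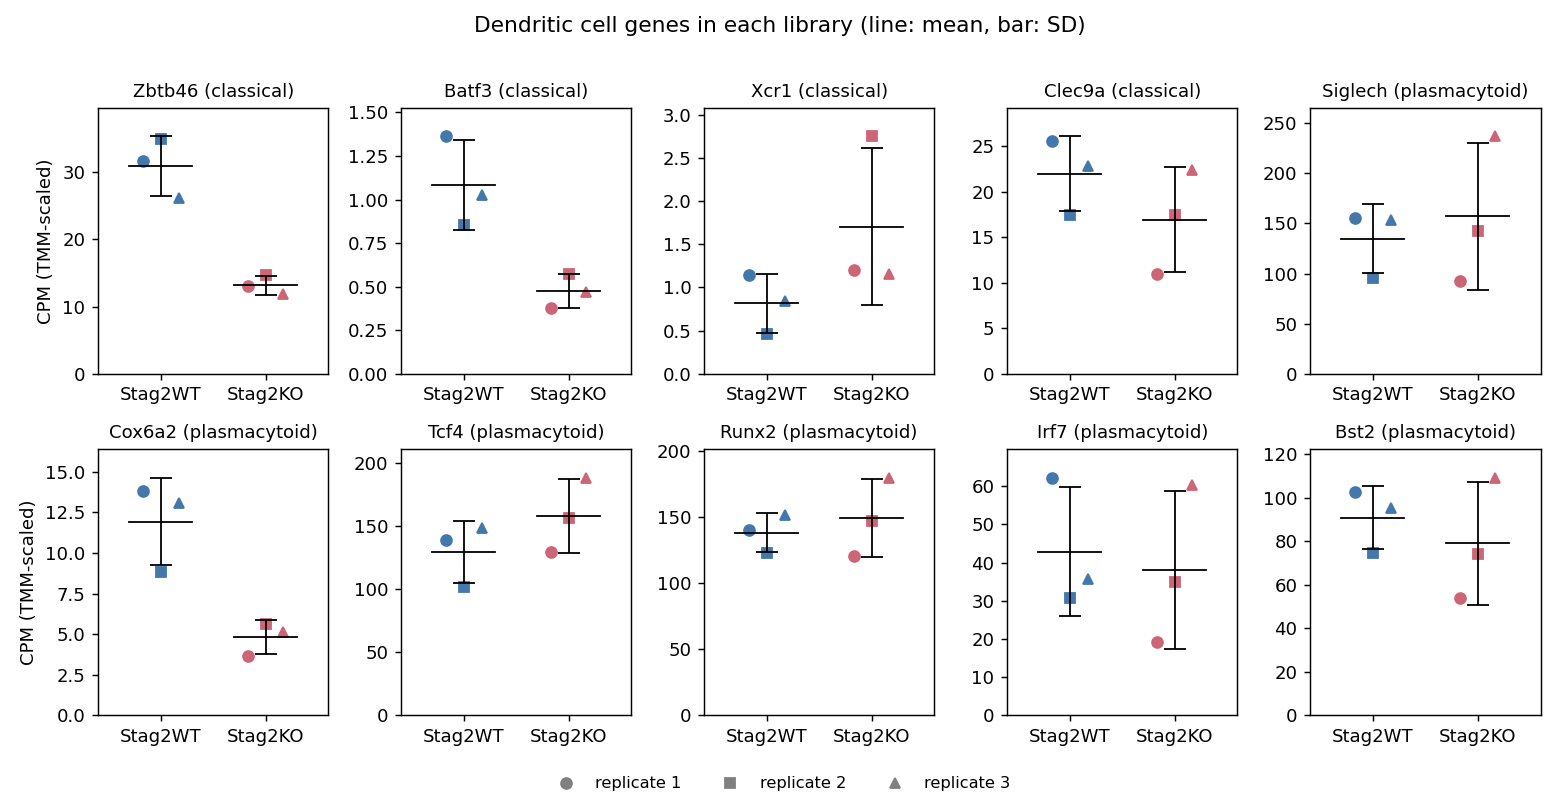
CPM (vertical axes, from 0) of the 10 dendritic cell genes in the Stag2WT and Stag2KO libraries; symbols are single libraries, lines group means and bars SD (n = 3). Zbtb46, Batf3 and Cox6a2 lie lower in Stag2KO and Xcr1 higher, each without overlap, while the other plasmacytoid genes overlap and Siglech runs from 92.4 to 237 CPM within Stag2KO.

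Among the plasmacytoid genes, Cox6a2 fell and the other 5 were not called. Siglech, a receptor gene and the usual surface marker of these cells in mice, was at 92.4, 142 and 237 CPM in Stag2KO and 155, 95.6 and 154 CPM in Stag2WT. The Stag2KO libraries span 2.56-fold and enclose the Stag2WT libraries (log2 change 0.22, SE 0.41, adjusted p = 0.735). Tcf4, the factor on which the plasmacytoid fate depends, was at 129.7, 157 and 189 CPM in Stag2KO and 139, 102 and 149 CPM in Stag2WT (log2 change 0.29, SE 0.18, adjusted p = 0.304). Runx2 is a bone-forming factor that plasmacytoid dendritic cells also use. It was at 121, 147 and 179.8 CPM in Stag2KO and 140.1, 123 and 152 CPM in Stag2WT (log2 change 0.11, SE 0.15, adjusted p = 0.622).

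Irf7, the master factor of type I interferon production, was at 19.2, 34.8 and 60.3 CPM in Stag2KO and 62.2, 30.8 and 35.6 CPM in Stag2WT. Its 3.14-fold spread within Stag2KO is the widest of the 10 genes in that group (log2 change -0.17, SE 0.51, adjusted p = 0.84). Bst2, the antiviral membrane protein tetherin, was at 53.7, 74.1 and 109 CPM in Stag2KO and 103, 74.7 and 95.4 CPM in Stag2WT (log2 change -0.20, SE 0.28, adjusted p = 0.648). For Tcf4, Runx2, Irf7 and Bst2 the groups overlap. These results do not show that the genes are alike in both genotypes, since the standard errors of Siglech and Irf7 are at least 0.41 on the log2 scale.

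Cox6a2, a muscle-type subunit of cytochrome c oxidase that plasmacytoid dendritic cells also express, was at 3.63, 5.63 and 5.16 CPM in Stag2KO and 13.8, 8.85 and 13.1 CPM in Stag2WT. The groups do not overlap, and 40.4% of the Stag2WT level remained (log2 change -1.31, SE 0.22, adjusted p = 0.00621). The call held when any 1 library was left out (largest adjusted p = 0.0236). Cox6a2 shares 70 of its 680 exon bases with Itgad, an integrin gene on the opposite strand, in the GENCODE M21 annotation. Itgad was at 4.18, 3.84 and 4.58 CPM in Stag2KO and 31.4, 38.3 and 44.9 CPM in Stag2WT (log2 change -3.18, adjusted p = 7.25e-05). The strand setting is not known, so reads of the 2 genes may be mixed, and the part of Itgad in the Cox6a2 result was not tested. Cox6a2 amounted to 86.9 to 147 CPM per 100 CPM of Itgad in Stag2KO and 23.1 to 44.0 in Stag2WT.

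The subsets were then set side by side. Of the 4 classical genes, 2 were lower, 0 higher and 2 not called, with a median log2 change of -0.77. Of the 6 plasmacytoid genes, 1 was lower, 0 higher and 5 not called, with a median of -0.03. Over all tested genes the median was 0.01. The classical median lies midway between Batf3 (-1.18) and Clec9a (-0.37), and Xcr1 went the other way (1.06). In the wider lists described further on, the median was -0.15 for other type 1 genes and -0.23 for type 2 genes. It was -0.41 for genes shared by classical cells and -0.28 for other plasmacytoid genes. The type 1 and type 2 lists were thus not below the plasmacytoid list. The groups did not overlap for 3 classical genes and 1 plasmacytoid gene, against 43.5% of all tested genes. Xcr1 is among the 3, higher in Stag2KO and parted only by 1.15 against 1.14 CPM. The difference between the subsets was not tested, since they hold few genes that were chosen with results known. Set against the mean of the Stag2WT libraries, the classical genes had a median log2 difference of -1.13, -0.62 and -0.59 in the Stag2KO libraries and the plasmacytoid genes one of -0.65, -0.11 and 0.44. The classical median is thus below every Stag2WT library in each Stag2KO library (Stag2WT: -0.33 to 0.28), whereas the plasmacytoid median was below the Stag2WT range of -0.39 to 0.19 in 1 Stag2KO library, within it in 1 and above it in 1.

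**Figure D2:**
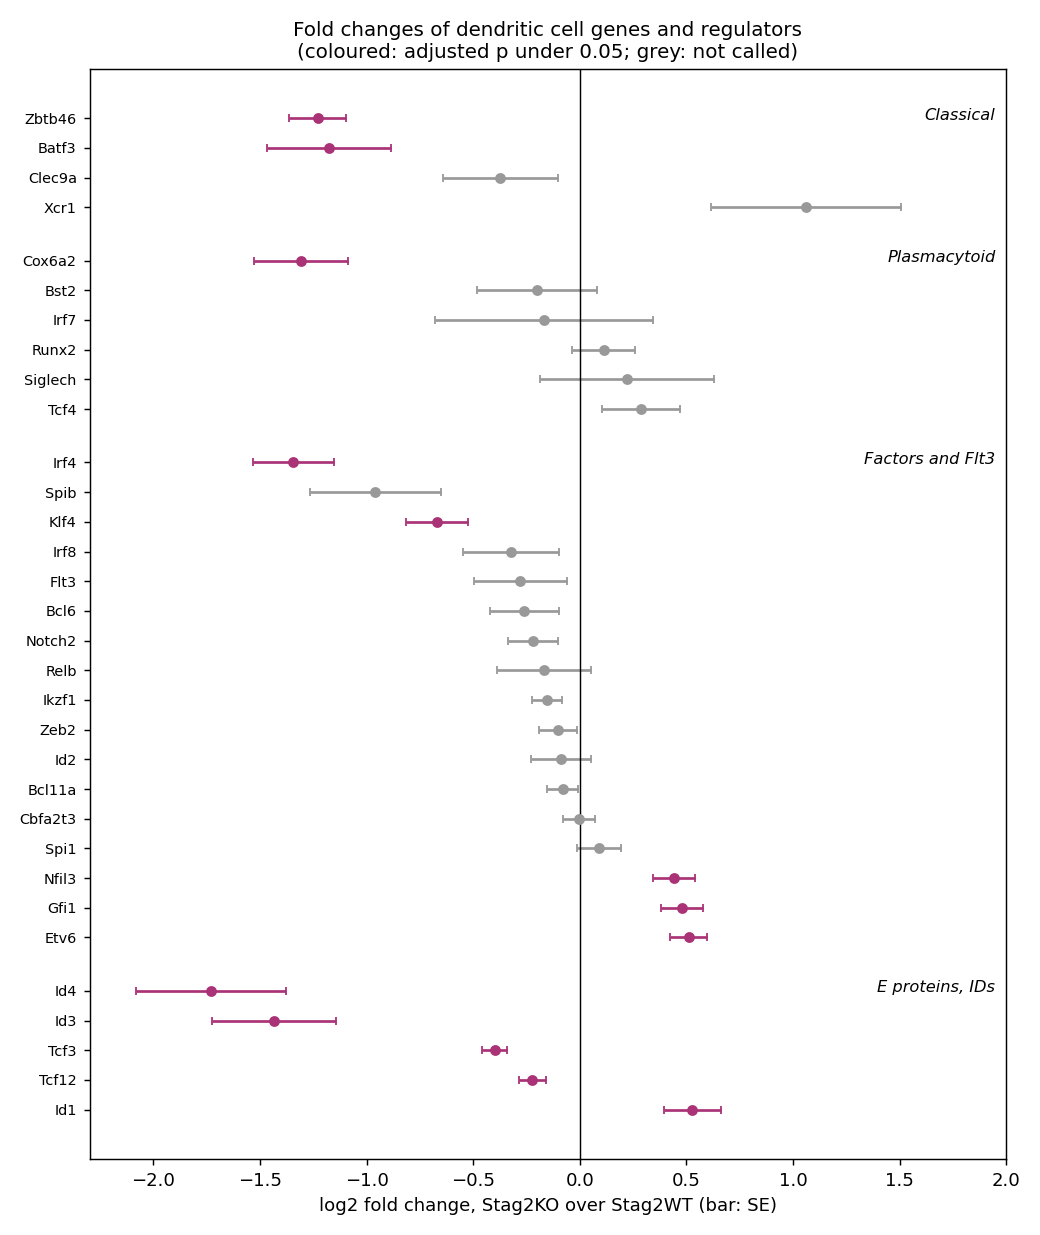
Log2 fold changes of Stag2KO over Stag2WT (horizontal axis, bars SE) for the 10 dendritic cell genes, the developmental factors with Flt3, and the E proteins with their inhibitors; coloured points were called. Zbtb46, Batf3, Cox6a2 and Irf4 lie between -1.34 and -1.18, while Siglech, Tcf4, Runx2, Irf7 and Bst2 lie between -0.20 and 0.29.

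Levels of different genes can be compared only per length, here CPM per kilobase of exons in the basic set of GENCODE M21, which include exons these cells may not use. In Stag2WT Bst2 was highest at 115 ± 18.3 (SD, n = 3), followed by Siglech at 41.1 ± 10.4. Runx2 (19.5 ± 2.07), Irf7 (17.9 ± 7.06) and Cox6a2 (17.5 ± 3.97) came next and did not differ beyond their spread. Tcf4 was at 9.72 ± 1.85, Clec9a at 6.68 ± 1.25 and Zbtb46 at 4.78 ± 0.689, and each overlapped its neighbour in this order (Tcf4 7.63 to 11.1, Clec9a 5.31 to 7.77, Zbtb46 4.05 to 5.41). Batf3 at 1.35 ± 0.322 and Xcr1 at 0.183 ± 0.077 were lowest and lay apart from the others and from each other. The kit used for these libraries is unknown, and this scale does not hold for a kit that reads only transcript ends.

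Libraries of one group differed in the plasmacytoid genes together. Stag2KO replicate 1 was the lowest of its group for 6 of the 6 genes and Stag2WT replicate 2 the lowest of its group for 6 of 6, while over all tested genes these libraries were lowest for 35.1% and 36.7%. Stag2KO replicate 3 was the highest of its group for 5 of 6, Cox6a2 being the exception, against 30.9% of all tested genes. These libraries were picked after their values were seen. Other plasmacytoid genes followed the same pattern, with Stag2KO replicate 1 lowest for 17 of 23 and Stag2WT replicate 2 lowest for 19 of 23. Examples are the gut-homing receptor gene Ccr9, at 12.5, 17.1 and 40.7 CPM in Stag2KO and 33.7, 19.2 and 30.4 CPM in Stag2WT, and the nucleic acid sensor gene Tlr9, at 8.60, 13.6 and 21.4 CPM in Stag2KO and 21.2, 11.8 and 15.6 CPM in Stag2WT. Both genes were chosen as examples after their values were seen. Part of this order was also found in the classical lists. Of 14 other type 1 genes, Stag2KO replicate 1 was lowest for 6 and Stag2KO replicate 3 highest for 11. Stag2WT replicate 2 was lowest for 10. In the same sequence the counts were 8, 9 and 9 of 13 genes shared by classical cells. They were 4, 6 and 5 of 11 type 2 genes, and 2, 1 and 3 of the 4 classical members.

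Interferon-stimulated genes also varied between libraries of a group. Of 32 such genes, Stag2KO replicate 1 was the lowest of its group for 29 and Stag2KO replicate 3 the highest for 31. Stag2WT replicate 2 was the lowest for 25 and Stag2WT replicate 1 the highest for 31. Over all tested genes these shares were, in the same order, 35.1%, 30.9%, 36.7% and 32.2%. Between genotypes 1 of the 32 was lower, 1 higher and 30 not called, with a median log2 change of -0.12. That is below the 21.2% called over all tested genes. Cmpk2, a mitochondrial nucleotide kinase gene, fell (log2 change -0.53, adjusted p = 0.0208) and Xaf1, a pro-apoptotic gene, rose (log2 change 1.35, adjusted p = 0.0274). Leaving out Stag2KO replicate 2 (adjusted p = 0.0682) or 3 (0.054), or Stag2WT replicate 1 (0.0514) or 2 (0.0702), ended the Cmpk2 call. The Xaf1 call ended without Stag2KO replicate 2 (0.0775) and without Stag2WT replicate 2 (0.0993) or 3 (0.08). Irf9 (-0.34, adjusted p = 0.0778) and Irf1 (0.28, adjusted p = 0.0907), both factors of the interferon response, were not called. Irf7 and Bst2 belong to this response as well as to plasmacytoid dendritic cells, and bulk values do not say which cells the reads came from.

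**Figure D3:**
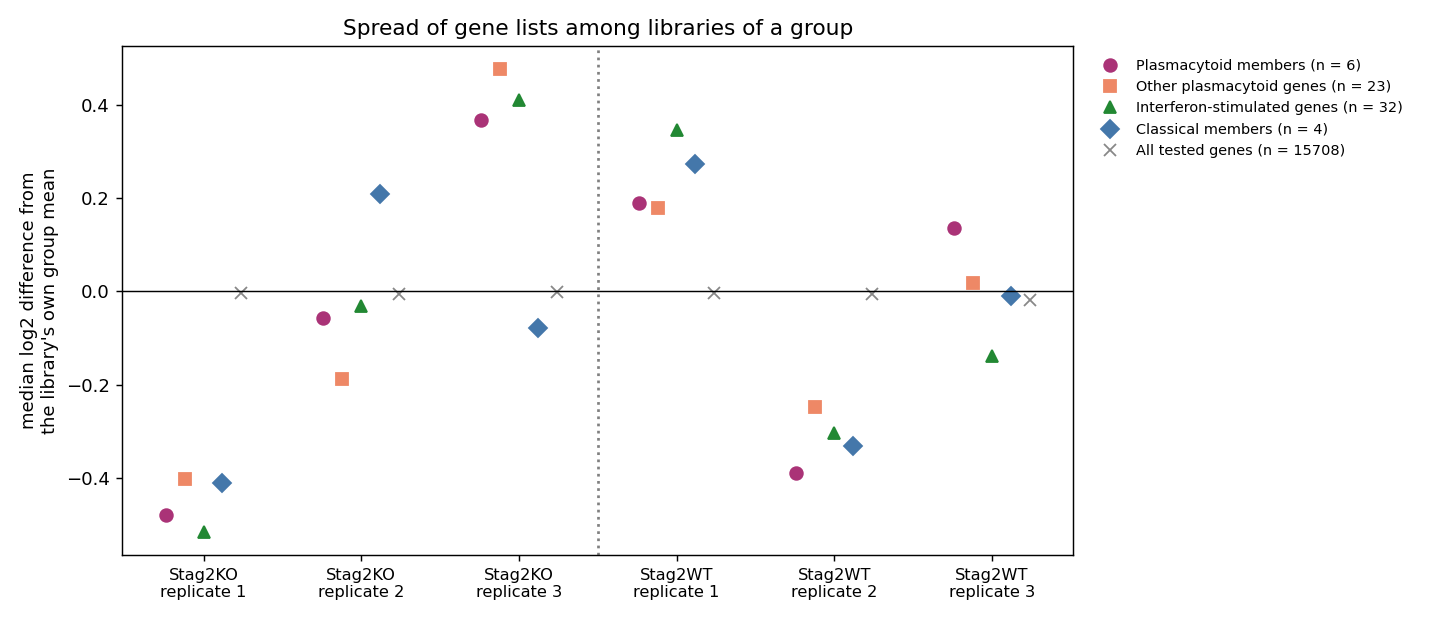
Median log2 difference of each gene list from the mean of the library's own group (vertical axis) in the 6 libraries (horizontal axis), so that genotype is removed. Plasmacytoid and interferon-stimulated genes are low in Stag2KO replicate 1 (-0.48 and -0.52) and Stag2WT replicate 2 (-0.39 and -0.30) and high in Stag2KO replicate 3 (0.37 and 0.41), while the median of all tested genes stays near 0.

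Markers of other cells differed between the same libraries. Of 10 T and natural killer cell markers, Stag2KO replicate 1 was the lowest of its group for 10, Stag2KO replicate 3 the highest for 7, Stag2WT replicate 2 the lowest for 9 and Stag2WT replicate 1 the highest for 9, the same order as in the plasmacytoid genes. Stag2KO replicate 3 was also the highest for 9 of 10 macrophage markers and Stag2WT replicate 1 for 10 of 10 B cell markers. Yet Stag2KO replicate 1 was lowest for only 2 of 10 macrophage and 2 of 10 B cell markers. Stag2WT replicate 2 was lowest for 6 and 2, so neither list followed the plasmacytoid order throughout. Over all tested genes, Stag2KO replicate 1 and Stag2WT replicate 2 were lowest for 35.1% and 36.7%. Stag2KO replicate 3 and Stag2WT replicate 1 were highest for 30.9% and 32.2%. Summed over 8 genes, erythroid markers ran from 993 to 1275 CPM in Stag2KO and 1489 to 2410 CPM in Stag2WT. On the median difference from the group mean they were highest in Stag2WT replicate 2 (0.36) and low in Stag2KO replicate 3 (-0.29), the reverse of the plasmacytoid genes there. The part of these cells in the spread was not tested.

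Setting each gene against Siglech in the same library scales out what it shares with Siglech. This ratio was chosen after the data were seen and is given with no test. Cox6a2 stood at 8.91, 9.25 and 8.52 CPM per 100 CPM of Siglech in the Stag2WT libraries and at 3.93, 3.96 and 2.18 in the Stag2KO libraries. The Stag2WT ratios are close together although Siglech itself spans 1.63-fold in that group, and every Stag2KO ratio is below them. Spib, an ETS factor gene shared by plasmacytoid dendritic cells and B cells, was at 78.8, 99.3 and 67.4 per 100 in Stag2WT and 40.0, 33.5 and 33.9 in Stag2KO, again without overlap. As plain CPM, Spib was not called (log2 change -0.96, SE 0.31, adjusted p = 0.0839), at 37.0, 47.6 and 80.2 CPM in Stag2KO and 123, 95.0 and 104 CPM in Stag2WT, groups that do not overlap. It was called lower by DESeq2 (adjusted p = 0.0288), by limma-voom (0.028), without robust estimation (0.0375) and without Stag2KO replicate 3 (0.00225). On simulated data, 20.5% of DESeq2's calls were false, against 5.15% for limma-voom and 6.9% for edgeR. Only 200 genes were changed there, against 3333 called in these data, so these shares may not hold here.

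Of 12 plasmacytoid genes set against Siglech, 7 had every Stag2KO ratio below every Stag2WT ratio, 1 had every one above, and 4 overlapped. Over all tested genes set against Siglech, 5.54% had every Stag2KO ratio below and 2.36% every one above. These shares are not a like-for-like background. Siglech spans 2.56-fold within Stag2KO, and a gene that does not vary with it takes that spread into its ratio. Genes that rise and fall with Siglech do not, so their groups part more easily. The 12 ratios share 1 denominator, whose own log2 change was 0.22, and the 12 genes were picked with results known, so the count is a description and not a test. Tcf4 was at 89.3 to 107 per 100 in Stag2WT and 79.6 to 140.3 in Stag2KO, and Runx2 at 90.1 to 128 and 75.9 to 131, so both overlap. Irf7 overlapped too, with 23.1 to 40.0 in Stag2WT and 20.7 to 25.5 in Stag2KO. Bst2 did not, with 62.1 to 78.1 in Stag2WT and 46.1 to 58.1 in Stag2KO. Lag3, an inhibitory receptor gene that plasmacytoid dendritic cells share with activated T cells, was the one above, with 15.0 to 19.4 in Stag2WT and 23.8 to 32.3 in Stag2KO.

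**Figure D4:**
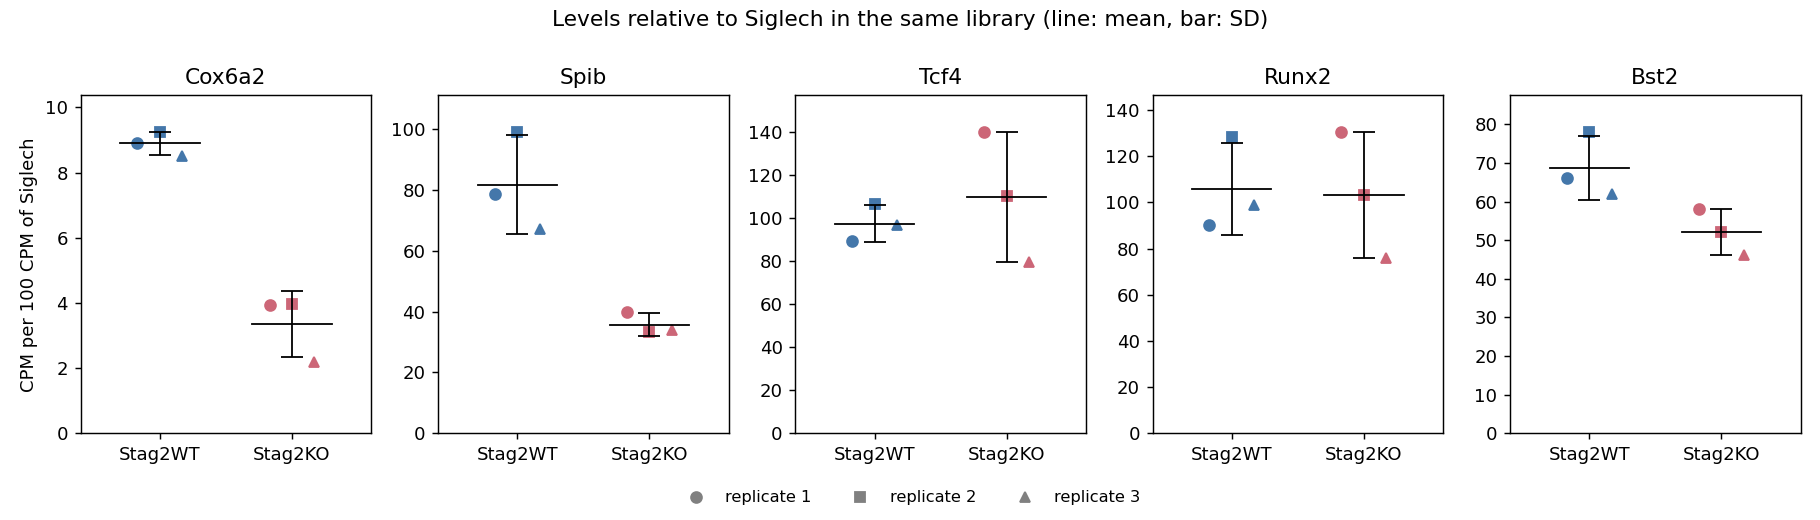
CPM of Cox6a2, Spib, Tcf4, Runx2 and Bst2 per 100 CPM of Siglech in the same library (vertical axes, from 0), with single libraries as symbols, group means as lines and SD as bars (n = 3). Cox6a2 and Spib are parted by group, at 2.18 to 3.96 against 8.52 to 9.25 and at 33.5 to 40.0 against 67.4 to 99.3, while Tcf4 and Runx2 overlap.

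Of 23 other plasmacytoid genes, 2 were lower, 2 higher and 19 not called between genotypes, with a median log2 change of -0.28. That share is near the 21.2% called over all tested genes. Lag3 (0.93, adjusted p = 0.0382) and Lair1, a collagen receptor gene (0.49, adjusted p = 0.0334), rose, while Ly6c2, a surface gene also of monocytes (-0.50, adjusted p = 0.0258), and Smim5, a small membrane protein gene (-0.53, adjusted p = 0.0288), fell. The Lag3 call ended in 4 of 6 leave-one-out fits (adjusted p 0.0809 to 0.127) and held without Stag2KO replicate 1 or 3. Leaving out Stag2KO replicate 3 (adjusted p = 0.0559) or Stag2WT replicate 2 (0.109) or 3 (0.0819) ended the Lair1 call. Those of Ly6c2 and Smim5 ended in 3 fits (each without 1 Stag2WT library, 0.0517 to 0.0922) and in 4 (without Stag2KO replicate 1 or 2 or Stag2WT replicate 1 or 2, 0.0731 to 0.0857).

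Along the pathway from endosomal Toll-like receptors to Irf7, 1 of 14 genes was lower, 2 higher and 11 not called, with a median of -0.10. That share, too, is near that of all tested genes (21.2%). The kinase gene Irak2 fell (log2 change -0.60, adjusted p = 0.00769), and the kinase gene Irak4 (0.29, adjusted p = 0.0293) and the adaptor gene Traf3 (0.29, adjusted p = 0.0406) rose. The Irak4 and Traf3 calls each ended in 5 of 6 leave-one-out fits (0.0537 to 0.0927 and 0.0578 to 0.117). Irak4 held without Stag2KO replicate 2 and Traf3 without Stag2WT replicate 3. Unc93b1, which carries these receptors to endosomes, was not called (-0.35, adjusted p = 0.111), though it was called lower without Stag2KO replicate 3 (adjusted p = 0.0139).

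The next question was how the factors that direct dendritic cell development stood. Irf4, a factor of type 2 classical dendritic cells that B and plasma cells also use, fell from 41.5 ± 9.29 to 16.3 ± 2.8 CPM (log2 change -1.34, SE 0.19, adjusted p = 0.00429). Irf8, required for type 1 and plasmacytoid cells, was at 254, 309 and 408 CPM in Stag2KO and 448, 306 and 461 CPM in Stag2WT, and Flt3, the receptor for FLT3 ligand, at 61.3, 87.5 and 90.3 CPM and 93.3, 76.0 and 121 CPM. Both overlap between groups (-0.32, adjusted p = 0.343, and -0.28, adjusted p = 0.396). Of 17 genes of this list, 2 were lower, 3 higher and 12 not called, with a median of -0.15, where 21.2% of all tested genes were called. Klf4, which type 2 cells and monocytes need, was lower (-0.67, adjusted p = 0.0165), and Etv6 (0.51, adjusted p = 0.00637), Gfi1 (0.48, adjusted p = 0.0136) and Nfil3 (0.44, adjusted p = 0.0172) were higher. Nfil3 acts early in the type 1 branch, and it was named after its values were seen. The Klf4 call ended without Stag2KO replicate 2 (0.059), and that of Nfil3 without Stag2KO replicate 1 (0.0522) or 3 (0.0646) or Stag2WT replicate 1 (0.0509).

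Among 6 E proteins and ID inhibitors other than Tcf4, 4 were lower, 1 higher and 1 not called, with a median of -0.31. Over all tested genes 21.2% were called. Tcf3, which encodes E2A, fell from 211 ± 7.53 to 160.02 ± 4.82 CPM (log2 change -0.40, adjusted p = 0.00365) and Tcf12 fell too (-0.22, adjusted p = 0.0445; named after its value was seen). The Tcf12 call ended in all 6 fits that each left out a library (adjusted p 0.0568 to 0.135). Of the inhibitors, Id3 (-1.43, adjusted p = 0.0123) and Id4 (-1.73, adjusted p = 0.0127) fell from low levels, Id3 from 5.10 ± 1.11 to 1.89 ± 0.649 CPM and Id4 from 0.582 ± 0.143 to 0.173 ± 0.0101 CPM. Id1 rose from 7.20 ± 0.814 to 10.4 ± 0.712 CPM (0.53, adjusted p = 0.0275), a call that ended in 5 of 6 leave-one-out fits (0.0525 to 0.0822) and held without Stag2WT replicate 1. Id2, the inhibitor that restrains the plasmacytoid fate, was not called (-0.09, adjusted p = 0.689). Tcf4 reads per Id2 read were 2.42, 3.13 and 3.23 in Stag2KO and 1.97, 1.88 and 3.13 in Stag2WT. The log2 ratio differed by 0.36 between group means, with overlap (two-sided exact permutation p = 0.3, where 0.1 is the smallest that 3 against 3 libraries allow).

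Other genes of the type 1 branch went both ways. Of 14, 2 were lower, 1 higher and 11 not called, with a median log2 change of -0.15. This share called is near the 21.2% of all tested genes. Cadm1, an adhesion gene of these cells, rose from 9.60 ± 1.98 to 19.1 ± 5.7 CPM (0.995, adjusted p = 0.0264), and the hydrolase gene Naaa (-0.59, adjusted p = 0.0404) and the trafficking gene Rab43 (-0.23, adjusted p = 0.0452) fell. The Cadm1 call ended without Stag2KO replicate 2 (0.059) and without Stag2WT replicate 2 (0.0878) or 3 (0.0789). The Naaa call ended in 4 of 6 leave-one-out fits and held without Stag2KO replicate 3 or Stag2WT replicate 2. The Rab43 call ended in 5 and held without Stag2WT replicate 3. The adjusted p in these fits was 0.0855 to 0.105 for Naaa and 0.0698 to 0.137 for Rab43. Ppt1, a lysosomal enzyme gene, was not called (0.23, adjusted p = 0.054).

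Of 11 genes of type 2 classical dendritic cells 10 were tested, with 2 lower, 2 higher and 6 not called and a median of -0.23. Over all tested genes 21.2% were called. Dtx1, a Notch target gene also of B cells, fell (log2 change -2.72, adjusted p = 0.00219), as did Cd7 (-0.64, adjusted p = 0.0441), while the lectin gene Clec12a (0.45, adjusted p = 0.0131) and the adhesion gene Esam (0.59, adjusted p = 0.0433) rose. The Esam call ended in all 6 leave-one-out fits (0.059 to 0.116), and that of Cd7 in 5 (0.0651 to 0.128), holding without Stag2KO replicate 3. Among 13 genes shared by classical dendritic cells, 5 were lower, 0 higher and 8 not called, with a median of -0.41. Over all tested genes 10.5% were lower. Ccr7, the receptor that leads mature dendritic cells to lymph nodes (-1.68, adjusted p = 0.00459), Cd83, a maturation marker (-1.76, adjusted p = 0.00515), Cst3, a protease inhibitor gene (-0.41, adjusted p = 0.0147) and Cd24a (-0.67, adjusted p = 0.0332) fell. The Cd24a call ended in 4 of 6 leave-one-out fits (0.0531 to 0.101) and held without Stag2KO replicate 1 or Stag2WT replicate 3. Bulk values do not say whether reads of Ccr7, Cd83, Cst3 and Cd24a came from dendritic cells, and the part of other cells was not tested.

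Several of these genes are also read in other cells, and markers of those cells moved with genotype. For the counts that follow, 10.5% of all tested genes were lower and 10.7% higher. Of 10 B cell markers, 10 were lower, with a summed level of 91.8 to 105 CPM in Stag2KO and 222 to 339 CPM in Stag2WT. Of 10 macrophage markers, 9 were lower, with sums of 320 to 463 and 1081 to 1225 CPM. Erythroid progenitors and endothelial cells also use Zbtb46. Of 8 erythroid markers, 4 were lower and 0 higher, while of 9 endothelial markers 1 was lower and 4 higher, with sums of 176 to 196 CPM in Stag2KO and 158 to 188 CPM in Stag2WT. Of 8 markers of bone-forming cells, which use Runx2, 5 were lower, with sums of 16.7 to 36.5 and 63.9 to 65.1 CPM. Of 10 markers of T and natural killer cells, 4 were lower and 0 higher, with sums of 65.5 to 135 and 93.7 to 159 CPM. The 4 were Cd3e, Cd3g, Cd8a and Ccl5. Of those not called, Ncr1 and Klrb1c of natural killer cells (log2 change 0.75 and 0.39) and Xcl1 (0.73) stood higher in Stag2KO. Cd3d (-0.95), Cd4 (-0.42) and Gzma (-0.21) stood lower. No marker in these lists was at 0 in any library, and their part in the dendritic cell results was not tested.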

How the data were processed

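RNA sequencing was carried out on 6 libraries of lineage-depleted mouse bone marrow. The deposited values are raw whole-number counts, 1 row for each gene symbol. The submitters' processing notes name build mm9 and the tools STAR 2.4, HTSeq 0.6.1 and DESeq2. The sources used here do not give the annotation, the strand setting or the kit for these samples, so reads from genes that overlap or lie antisense to each other may be mixed.

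Genotype came from the labels. Replicates were numbered in accession order and the numbers only name libraries. Counter totals that name no gene were left out; they were 8.81% to 12.8% (no feature), 2.02% to 2.2% (ambiguous) and 23.4% to 28.6% (aligned to several places) of each library. No pair of libraries agreed within sampling noise (chi-square per degree of freedom 22.6 to 47.1 within groups), so all 6 were kept.

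Counts were fitted in R 4.3.3 with edgeR 4.0.16 (TMM, filterByExpr, robust quasi-likelihood fit, genotype as the only term, Benjamini-Hochberg adjustment over 15708 genes). The script was tested on simulated data in which 200 genes were changed. There 6.9% of edgeR's calls, 5.15% of limma-voom's and 20.5% of DESeq2's were false. Such shares depend on how many genes change, and 3333 genes were called in the real data. Standard errors come from the fit's F statistic. Differences from group means used 0.01 CPM added, and the Tcf4 to Id2 ratio 0.5 reads. Alternatives were median-ratio size factors, 2 other filters, DESeq2 1.42.0, limma-voom (limma 3.58.1), a fit without robust estimation and each library left out in turn.

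The members and gene lists were chosen with earlier results of these data known. The naming rule took the 10 members, Stag2, Flt3, Irf8, Irf4, Id2, Tcf3 and up to 4 genes with the smallest p of each list. For lists of other cell types only counts, sums and medians are given. The exception is the T and natural killer cell markers, which were named after their values were seen. List symbols missing from the table were found through RefSeq synonyms (190 of 190 matched), Smim5 among them. Lists were described by counts and medians, with no set test.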

Additional observations from a re-analysis of the deposited data

How the results depend on the processing

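The calls of Zbtb46 and Cox6a2 held under all 12 alternatives, and 3 members were called under every change of normalization, test or dispersion. With at least 5 CPM in at least 3 libraries, Batf3 and Xcr1 were not tested and 2 members were called. Leaving out 1 library gave 2 or 3 called members and 1967 to 2548 called genes, against 3333 in all. The median log2 change of the plasmacytoid members ran from -0.35 without Stag2KO replicate 3 to 0.20 without Stag2KO replicate 1, and that of the classical members from -0.89 to -0.59. The sign of 4 members and of Id2, Ccr9, Tlr9 and Kit, none of them called, turned when 1 library was left out. Siglech ran from -0.20 to 0.49, Runx2 from -0.043 to 0.24, Irf7 from -0.66 to 0.20 and Bst2 from -0.51 to 0.014. Id2 ran from -0.21 to 0.086, Ccr9 from -0.91 to 0.059, Tlr9 from -0.54 to 0.12 and Kit from -0.014 to 0.10. The cause was not tested, and fits with fewer libraries have less power. The log2 ratio of Tcf4 to Id2 kept its direction (0.22 to 0.59). The difference in Cox6a2 per Siglech, chosen after the data were seen, was -1.46, and -1.60 to -1.17 without 1 library. Among the other named genes, the fit with no filter beyond 1 read ended the calls of Cd7 (adjusted p = 0.0629), Cd24a (0.057), Lag3 (0.0912) and Xaf1 (0.074), and limma-voom those of Rab43 (0.0524) and Tcf12 (0.0524). DESeq2, which had the largest share of false calls on simulated data with few changed genes, called Ppt1 (0.0498), Unc93b1 (0.04) and Irf9 (0.0312). Irf9 was also called without Stag2KO replicate 3 (0.0205). No paired analysis was possible because the labels give no replicate numbers shared between the genotypes. Depth limits Batf3 and Xcr1 most, at 11 to 101 reads a library.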
